A study of Mus musculus with 16 samples.

Results

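Translation initiation factors are the proteins that bring the first tRNA, the messenger RNA and the ribosome together, and 53 of the 13101 genes in the table of this mouse testis study carry an Eif name. The members were all genes whose symbol begins with Eif and a digit from 1 to 6. That rule takes in the factors themselves, and also the kinases of eIF2, the proteins that bind eIF4E and Eif4a3 of the exon junction complex. No measured value was used to choose them. Polyadenylated RNA was sequenced in bulk from spermatogenic cells sorted from 8-week-old male C57BL/6J mice, in 16 libraries, 2 for each of 8 groups. The groups were spermatogonia, MI spermatocytes, MII spermatocytes and round spermatids, each from wild-type mice and from mice deficient in Tex10 in germ cells. Wild-type mice have no further genotype in the labels. The Tex10-deficient mice carried 1 floxed and 1 null allele of Tex10 with Stra8-iCre, a recombinase that acts in male germ cells from the spermatogonial stage. The sources used here do not give the sorting method and do not say whether separate mice gave the 2 libraries in a group. The p-values so measure the spread among these samples, and that spread may be technical.

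Initiation starts when eIF2 carries the initiator tRNA to the small ribosomal subunit, joined by eIF1, eIF1A, eIF3 and eIF5. The cap-binding complex eIF4F, made of the cap-binding protein eIF4E, the scaffold eIF4G and the RNA helicase eIF4A, then recruits the messenger RNA. The exchange factor eIF2B recycles eIF2, kinases that phosphorylate eIF2 slow it, and the eIF4E-binding proteins keep eIF4E from eIF4G. Male germ cells are known for storing messenger RNAs for later translation, and for silencing most of the X and Y chromosomes during meiosis.

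The Tex10 transcript checks the labels: in each cell type both Tex10-deficient libraries lay below both of the wild type, and the log2 difference averaged over types was -1.68 ± 0.15, adjusted p = 0.00049 (limma). The group of each library was taken from its title. The labels also have a cell type field, which disagrees with the title in 6 of the 8 libraries from Tex10-deficient mice and 0 of 8 of the wild type. Summed over the marker list of each type, spermatogonial markers (6 genes) were at 233 to 309 FPKM in wild-type spermatogonia and at most 58.8 elsewhere in the wild type. Spermatid markers (7 genes) were at 8251 to 11308 FPKM in wild-type spermatids and at most 652 elsewhere in the wild type. Grouped by title, the Tex10-deficient libraries had spermatogonial markers at 158 to 218 FPKM in spermatogonia and at most 52.2 elsewhere. Their spermatid markers were at 4630 to 4756 FPKM in spermatids and at most 474 elsewhere, so both lists follow the titles and not the field. The libraries labelled MII stood apart. Meiotic markers (8 genes) summed to 256 to 677 FPKM there in the wild type, against 1798 to 2326 in MI, and Leydig cell markers (5 genes) to 741 to 1213 FPKM, against 17.7 to 22.1. The meiotic list was highest in wild-type spermatids, at 5019 to 5336 FPKM. Most of that came from Ldhc (2802 and 2343) and Pgk2 (2180 and 2355). Its sum so does not measure meiotic cells alone and was not used to check the MI titles. Wild-type spermatogonia held immune markers (6 genes) at 280.0 to 439.7 FPKM, which were 1.88 to 2.47 in MI. In bulk samples, fewer cells of a type and less RNA per cell cannot be told apart. Levels are given as FPKM, a fragment count divided by transcript length and library size, so levels of different genes are per length. Changes are limma differences of log2(FPKM + 1) ± SE, called where the adjusted p (Benjamini-Hochberg, over 13099 genes) was under 0.05.

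All 53 members passed the filter on low values, and 45 of them were at 1 FPKM or more in every library. A single member, Eif2ak3, was listed at 0 in 1 library. The members' FPKM summed to 2076 ± 21.1 (SD, n = 2) in wild-type spermatogonia, 2373 ± 13.5 in MI, 1758 ± 53.8 in MII and 3301 ± 79.7 in spermatids. The sum was so lowest in MII and highest in spermatids. As a share of all FPKM in the table it was lower at each step, at 1.05% in spermatogonia, 0.820% in MI, 0.686% in MII and 0.631% in spermatids. The FPKM total of the table was 512412 and 533859 in the spermatid libraries and 196944 and 199649 in the spermatogonial ones. In the wild type, as deposited, the highest mean level of a member lay in spermatids for 24 of the 53. It lay in spermatogonia for 13, in MII for 10 and in MI for 6. In Tex10-deficient cells these counts were 20, 5, 16 and 12, and 33 of 53 members had the same type in both genotypes. Such a count was not made over all genes. The heat map of every member in every library shows the 4 cell types more clearly than the 2 genotypes.

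**Figure D1:**
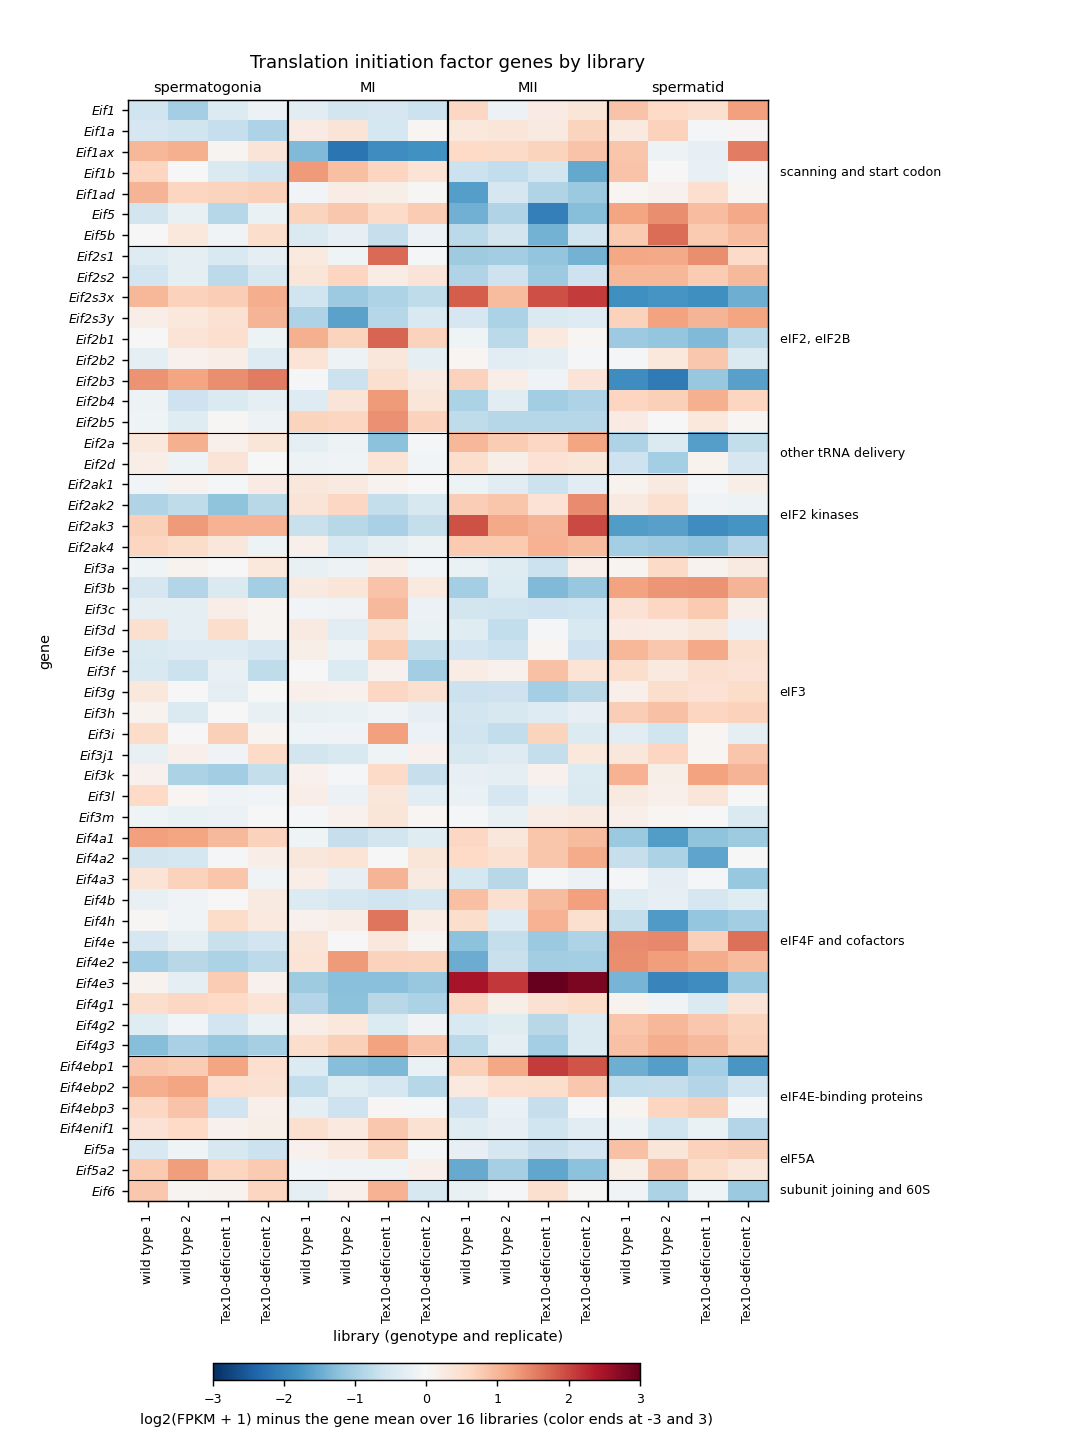
Level of each of the 53 initiation factor genes (y axis, grouped by role) in the 16 libraries (x axis, by cell type, genotype and replicate), as log2(FPKM + 1) minus the mean of the gene over all libraries. Eif4e3 stands out in the libraries labelled MII, and Eif2s3x and Eif2b3 are low in spermatids.

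From wild-type spermatogonia to MI, 21 of 53 members were called, 8 higher and 13 lower, where 51.9% of all genes were called, 26.3% higher and 25.7% lower. From MI to MII 26 were called, 11 higher and 15 lower (57.2% of all genes, 30% higher and 27.2% lower). From MII to spermatids 34 were called, 21 higher and 13 lower (73.8%, 38.8% higher and 35% lower). From MI to spermatids 17 were called, 9 higher and 8 lower (42.3%, 22.6% higher and 19.8% lower). The members were called less often than genes in general in each of the 4 comparisons, a difference that was not tested. Without wild-type MI library 2 the count was 11 from spermatogonia to MI and 17 from MI to MII, and without wild-type MII library 1 it was 15 from MI to MII. From MI to spermatids it was 9 without MI library 1, 9 without MI library 2, 11 without spermatid library 1 and 8 without spermatid library 2. Their median log2 change was -0.06, -0.31, 0.52 and 0.20 in that order, against -0.07, 0.05, 0.11 and -0.01 over all genes.

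The split into higher and lower depends on the scale, and FPKM totals differ between cell types. With quantile normalization it became 4 higher and 24 lower from spermatogonia to MI, 11 and 12 from MI to MII, 10 and 17 from MII to spermatids and 2 and 9 from MI to spermatids. With every library scaled to the same FPKM total it became 3 and 22, 13 and 12, 8 and 21, and 2 and 20, and that scaling moved the median of all genes to -0.49, 0.18, -0.67 and -0.56. The median of the members became -0.58, -0.14, -0.46 and -0.64 there, so its sign turned in the 2 steps into spermatids. Quantile normalization moved the median of all genes to -0.25, -0.21, 0.20 and -0.17, and that of the members to -0.68, -0.06, -0.28 and -0.43. Calls with 1 sign under the deposited scale, median-of-ratios, quantile and equal-total scaling numbered 16 of 21, 20 of 26, 17 of 34 and 8 of 17. Ratios of 2 genes within a library do not change when the whole library is multiplied by 1 factor, as in equal-total or median-of-ratios scaling, but they do under quantile normalization. They are given below, as deposited, for related members.

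Genes of the cap-binding complex moved in opposite directions between spermatogonia and MI. Eif4g1 encodes the general scaffold, and it was at 53.04 and 56.6 FPKM in wild-type spermatogonia, 19.4 and 15.1 in MI, 56.8 and 41.5 in MII and 39.1 and 33.7 in spermatids. MI was the low point, with no overlap with any other type. Eif4g3, another scaffold, was at 50.2 and 62.9 FPKM in spermatogonia, 180.0 and 203 in MI, 70.4 and 101.5 in MII and 229 and 266 in spermatids. The 2 scaffolds moved in opposite directions: Eif4g1 fell (-1.62 ± 0.29, adjusted p = 0.00043) and Eif4g3 rose (1.75 ± 0.29, adjusted p = 0.00025) into MI. Their ratio within a library, Eif4g3 over Eif4g1, was 0.946 and 1.11 in spermatogonia, 9.26 and 13.5 in MI and 5.87 and 7.9 in spermatids. The same ratio in Tex10-deficient libraries was 1.001 and 1.26 in spermatogonia, 14.2 and 12.3 in MI and 9.1 and 4.23 in spermatids. Eif4g1 rose again from MI to spermatids (1.04 ± 0.29, adjusted p = 0.011). The call of Eif4g1 into spermatids was lost without MI library 2 (0.87) or spermatid library 1 (0.94) and with quantile normalization (0.38) or equal totals (0.22), at adjusted p from 0.072 to 0.56.

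Eif4g2 encodes a scaffold relative that cannot bind eIF4E, and it was the most abundant of the 3 in all 8 wild-type libraries. Its level was 149.8 and 183 FPKM in spermatogonia, 220.2 and 241 in MI, 139.8 and 149 in MII and 344 and 389 in spermatids. It was not called from spermatogonia to MI (0.47 ± 0.27, adjusted p = 0.16) or from MI to spermatids (0.67 ± 0.27, adjusted p = 0.062).

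The helicase genes also parted. Eif4a1 was at 106 and 103 FPKM in wild-type spermatogonia, 41.2 and 27.4 in MI, 69.8 and 57.2 in MII and 20.3 and 13.3 in spermatids. It was highest in spermatogonia and lowest in spermatids, with no overlap between any 2 of the types. Eif4a2, its close relative, was at 23.6 and 24.3 FPKM in spermatogonia, 44.9 and 47.04 in MI, 53.8 and 49.2 in MII and 21.3 and 17.7 in spermatids. Eif4a1 fell into MI (-1.61 ± 0.28, adjusted p = 0.00033), while the change of Eif4a2 did not pass the test (0.91 ± 0.38, adjusted p = 0.061). The ratio of Eif4a1 to Eif4a2 was 4.49 and 4.23 in spermatogonia, 0.917 and 0.582 in MI and 0.952 and 0.7505 in spermatids. In Tex10-deficient spermatogonia it was 2.58 and 1.8, below both wild-type libraries, and in Tex10-deficient MI 0.845 and 0.754. Neither gene was called between genotypes in spermatogonia (Eif4a1 -0.37 ± 0.28, Eif4a2 0.63 ± 0.38). Of all genes 16.9% were higher and 19.6% lower in that comparison with no overlap, and ratios were not counted so. Both fell from MI to spermatids, Eif4a1 (-0.99 ± 0.28, adjusted p = 0.011) and Eif4a2 (-1.199 ± 0.38, adjusted p = 0.022). The call of Eif4a1 into spermatids was lost without MI library 1 (-0.70) or spermatid library 2 (-0.70), at adjusted p from 0.13 to 0.14. The call of Eif4a2 into spermatids was lost without MI library 1 (-1.23), MI library 2 (-1.17), spermatid library 1 (-1.32) or spermatid library 2 (-1.07), at adjusted p from 0.056 to 0.12. Eif4a3, a helicase of the exon junction complex rather than of initiation, was at 42.5 and 51.4 FPKM in spermatogonia, 36.8 and 26.7 in MI, 21.6 and 17.2 in MII and 30.2 and 26.3 in spermatids, and was not called in either step (-0.56 ± 0.40, adjusted p = 0.25 into MI and -0.15 ± 0.40, adjusted p = 0.79 from MI to spermatids).

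Among the cap-binding proteins, Eif4e, the standard one, was at 11.6 and 13.5 FPKM in spermatogonia, 21.9 and 16.8 in MI, 6.55 and 9.78 in MII and 46.2 and 47.4 in spermatids. Eif4e2 encodes a cap-binding relative that does not join eIF4G in the usual way and is best known in translational repression. It was at 21.3 and 24.3 FPKM in spermatogonia, 58.9 and 108 in MI, 15.1 and 27.5 in MII and 118 and 106 in spermatids. Eif4e2 exceeded Eif4e in FPKM in all 16 libraries, and in the wild type its own level in MI and spermatids lay above spermatogonia and MII with no overlap. Eif4e2 rose into MI (1.77 ± 0.32, adjusted p = 0.00043), whereas Eif4e was not called there (0.58 ± 0.32, adjusted p = 0.14). In the later step from MI to spermatids Eif4e rose (1.24 ± 0.32, adjusted p = 0.006) and Eif4e2 was not called (0.48 ± 0.32, adjusted p = 0.24). The call of Eif4e into spermatids was lost without MI library 2 (1.07) and with quantile normalization (0.50) or equal totals (0.42), at adjusted p from 0.057 to 0.29. Eif4e3, another cap-binding relative with 14.8% of its exon bases shared with an overlapping gene on the same strand, was low outside the libraries labelled MII, at 3.64 and 2.498 FPKM in spermatogonia, 1.06 and 0.794 in MI and 0.624 and 0.0826 in spermatids. It fell from spermatogonia to MI (-1.07 ± 0.35, adjusted p = 0.02). The call of Eif4e3 into MI was lost without spermatogonia library 1 (-0.86) or MI library 2 (-0.97) and with a pseudocount of 0.1 (-1.61) or a pseudocount of 5 (-0.44), at adjusted p from 0.051 to 0.13. The immune markers given above and the myoid and endothelial markers (3 genes, 32.4 to 69.7 FPKM in spermatogonia, 3.07 to 8.25 in MI) were lower in MI, with 6 of 6 and 2 of 3 called, and their part in the falls of Eif4e3 and the other members lower in MI was not tested.

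Of the 4 genes for eIF4E-binding proteins, 3 were called lower into MI, where 25.7% of all genes were. Eif4ebp2 was the most abundant of the 3 classical ones, at 59.9 and 63.5 FPKM in spermatogonia, 16.2 and 21.3 in MI, 34.1 and 39.8 in MII and 16.2 and 16.5 in spermatids. It fell by more than its spread (-1.68 ± 0.25, adjusted p = 0.0001), and MI and spermatids overlapped. Eif4ebp1, a target of the kinase mTOR, was at 6.5 and 6.19 FPKM in spermatogonia, 2.19 and 0.768 in MI and 0.538 and 0.352 in spermatids (-1.63 ± 0.43, adjusted p = 0.0056 into MI). Eif4ebp3 was at 10.4 and 12.4 FPKM in spermatogonia, 5.13 and 3.86 in MI and 6.84 and 10.6 in spermatids (-1.18 ± 0.37, adjusted p = 0.016 into MI), and 67.3% of its exon bases also belong to an overlapping gene on the same strand, so its reads are uncertain. The call of Eif4ebp1 into MI was lost without MI library 2 (-1.202), at adjusted p of 0.079. The call of Eif4ebp3 into MI was lost without spermatogonia library 2 (-1.07) or MI library 2 (-1.01), at adjusted p from 0.09 to 0.11. The fourth, Eif4enif1, which carries eIF4E into the nucleus and acts in messenger RNA storage, was at 61.3 and 69.2 FPKM in spermatogonia and 63.9 and 55.9 in MI and was not called (-0.12 ± 0.28, adjusted p = 0.74). It was lower in spermatids, at 40.5 and 29.5 FPKM (-0.77 ± 0.28, adjusted p = 0.04 from MI). The call of Eif4enif1 into spermatids was lost without MI library 1 (-0.68), MI library 2 (-0.87) or spermatid library 2 (-0.55), at adjusted p from 0.083 to 0.26.

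**Figure D2:**
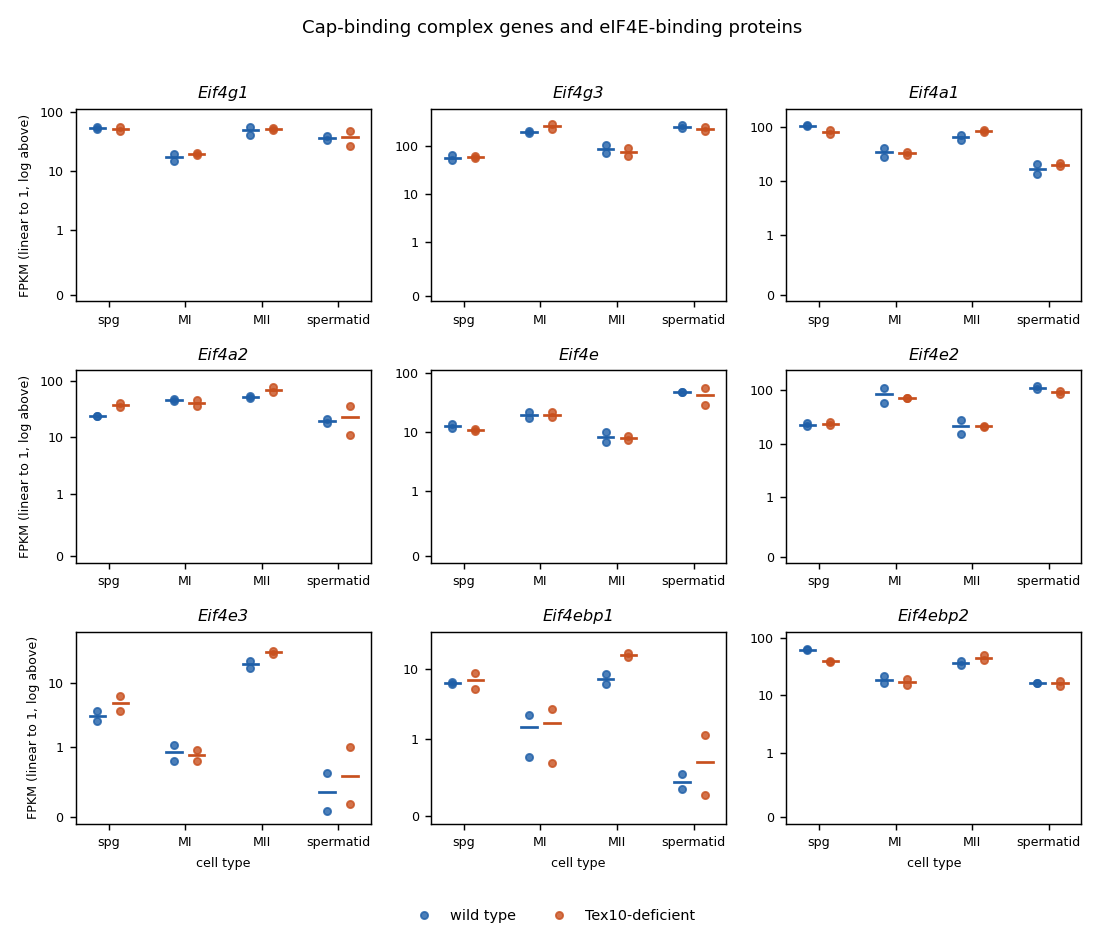
FPKM (y axis, linear up to 1 and logarithmic above) of 9 genes of the cap-binding complex and its regulators in each of 4 cell types (x axis, spg for spermatogonia). Points are libraries, 2 per group, bars are group means, blue is wild type and orange is Tex10-deficient. Eif4g1 and Eif4a1 drop from spermatogonia to MI while Eif4g3 and Eif4e2 rise, in both genotypes, and Eif4e3 is highest in the libraries labelled MII.

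Eif4b and Eif4h encode cofactors that stimulate the helicase. Eif4b was at 47.3 and 51.5 FPKM in spermatogonia, 41.5 and 38.04 in MI, 103 and 77.5 in MII and 42.5 and 46.7 in spermatids. Neither was called into MI (-0.31 ± 0.24, adjusted p = 0.31 for Eif4b and 0.20 ± 0.44, adjusted p = 0.73 for Eif4h). Eif4h was at 32.4 and 29.3 FPKM in spermatogonia, 34.8 and 36.3 in MI and 18.8 and 9.001 in spermatids, with both spermatid libraries below the others. Its fall from MI to spermatids was called (-1.37 ± 0.44, adjusted p = 0.022). The call of Eif4h into spermatids was lost without MI library 1 (-1.41), MI library 2 (-1.34) or spermatid library 2 (-0.88), at adjusted p from 0.08 to 0.21.

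RefSeq promoters on GRCm38.p6, 250 bases before to 50 after the start, matched 43 of the 53 members. The E-box CACGTG, the same on both strands, was in 8 of the 43 (18.6%) and in 7.24% of all 27025 promoters. The ETS-type motif ACCGGAAG, searched on both strands, was in 6 of 43 (14.0%) against 2.34%. The cAMP response element TGACGTCA was in 0 of 43 against 1.85%, the letters GTTGCC, part of the X-box, in 7 of 43 (16.3%) against 12.7%, and the MYB-type TAACNG in 4 of 43 (9.30%) against 23.2%. These are matches of letters, not shown to be sites. Promoters with either an E-box or an ETS-type match were not counted over all genes. Among the 16 members called under every scaling from wild-type spermatogonia to MI, of which 3 rose and 13 fell, 12 had a promoter in the table and 5 of these held an E-box or ETS match. Those of Eif4e2, which rose, and Eif4g1, which fell, did not lie before both the RefSeq and the GENCODE start. The matches of the other 3, which fell as most of the 16 did, lay before both starts. Those stretches are shown 5′ to 3′ on the strand of the gene with the matches in capitals, to give the sequence around each match.
Eif4a1, E-box 189 bases before the RefSeq start, chr11:69672567-69672652, minus strand: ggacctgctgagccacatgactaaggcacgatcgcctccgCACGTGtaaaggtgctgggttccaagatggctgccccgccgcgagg
Eif5a2, E-boxes 142 and 117 bases before the RefSeq start, chr3:28781095-28781180, plus strand: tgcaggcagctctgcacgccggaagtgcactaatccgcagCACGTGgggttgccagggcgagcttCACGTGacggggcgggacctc
Eif4ebp2, ETS-type motif on the other strand 124 bases before the RefSeq start, chr10:61452746-61452833, minus strand: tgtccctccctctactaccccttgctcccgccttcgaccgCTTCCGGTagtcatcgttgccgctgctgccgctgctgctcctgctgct

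The 13 measured subunits of eIF3, the platform that holds the small subunit and the other factors, gave 1 call of 13 from spermatogonia to MI, where 51.9% of all genes were called. Their wild-type group means lay between 8.9 FPKM (Eif3j1 in MI) and 208 FPKM (Eif3e in spermatids), with Eif3a, the large scaffold subunit, and Eif3e the most abundant of the 13 in every type. The 1 called there was Eif3b, a core subunit, at 32.9 and 25.4 FPKM in spermatogonia, 57.7 and 60.7 in MI and 111 and 121 in spermatids (1.01 ± 0.30, adjusted p = 0.013). The median of the 13 was -0.01 in that step, against -0.07 over all genes. From MI to spermatids 3 of 13 were called, all higher, where 42.3% of all genes were called and 22.6% were higher. As deposited, 12 of 13 estimates were above 0, with a median of 0.56 against -0.01 over all genes. That direction turned with the scale: 3 of 13 were above 0 under quantile normalization, with a median of -0.30 against -0.17, and 4 of 13 with equal totals, with -0.27 against -0.56. Those scalings called 0 of 13 higher in either step, and lower they called 5 and 4 into MI and 1 and 3 from MI to spermatids. Eif3h was at 47.2 and 48.2 FPKM in MI and 93.9 and 102 in spermatids (1.02 ± 0.24, adjusted p = 0.0041), and Eif3b rose as well (0.96 ± 0.30, adjusted p = 0.021). Eif3j1, a loosely held subunit, was at 8.56 and 9.21 FPKM in MI and 16.5 and 20.9 in spermatids (0.99 ± 0.37, adjusted p = 0.046). Of the 50-base windows in the transcripts of Eif3j1, 39.4% also occur in its copy Eif3j2, which is not analysed here, so its reads may be split, and 19.0% of its exon bases overlap a gene on the other strand. The call of Eif3b into MI was lost without spermatogonia library 2 (0.83) or MI library 2 (0.97) and with quantile normalization (0.38) or equal totals (0.48), at adjusted p from 0.07 to 0.34. The call of Eif3h into spermatids was lost with quantile normalization (0.13) or equal totals (0.18), at adjusted p from 0.57 to 0.76. The call of Eif3b into spermatids was lost without MI library 1 (0.92), MI library 2 (0.99), spermatid library 1 (1.02) or spermatid library 2 (0.90) and with quantile normalization (0.03) or equal totals (0.12), at adjusted p from 0.065 to 0.96. The call of Eif3j1 into spermatids was lost without MI library 1 (0.94), MI library 2 (1.03), spermatid library 1 (1.15) or spermatid library 2 (0.83) and with quantile normalization (0.49) or equal totals (0.19), at adjusted p from 0.081 to 0.69.

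Among the genes for start codon selection, Eif5 triggers GTP hydrolysis on eIF2 at the start codon. It was at 93.6 and 119 FPKM in spermatogonia, 219.6 and 243 in MI, 49.9 and 72.8 in MII and 314 and 361 in spermatids. Its rise into MI was called (1.13 ± 0.33, adjusted p = 0.01). The call of Eif5 into MI was lost without spermatogonia library 1 (0.96) or MI library 2 (1.05) and with quantile normalization (0.04) or equal totals (0.58), at adjusted p from 0.066 to 0.91. Eif5b, the factor that joins the 2 ribosomal subunits, was at 44.2 and 50.3 FPKM in MI and 105 and 196 in spermatids (1.58 ± 0.36, adjusted p = 0.003), with 16.9% of its exon bases in an overlapping gene on the other strand. The call of Eif5b into spermatids was lost without spermatid library 2 (1.14) and with quantile normalization (0.61) or equal totals (0.74), at adjusted p from 0.053 to 0.18. Eif1 and Eif1b encode near relatives that guard against wrong start codons. Eif1 was at 30.5 and 22.4 FPKM in spermatogonia, 36.7 and 31.6 in MI, 72.3 and 41.2 in MII and 85.7 and 70.4 in spermatids. Eif1b was at 73.3 and 47.1 FPKM in spermatogonia, 114 and 87.8 in MI, 29.4 and 27.5 in MII and 84.3 and 46.4 in spermatids. Of its exon bases 12.7% lie in an overlapping gene on the other strand. Within a library Eif1b exceeded Eif1 in wild-type spermatogonia (ratios 2.402 and 2.101) and MI (3.11 and 2.78), and not in MII (0.407 and 0.668) or spermatids (0.984 and 0.659). In the Tex10-deficient libraries the ratio was above 1 in MI alone (2.25 and 2.12), and was 0.977 and 0.739 in spermatogonia, 0.565 and 0.254 in MII and 0.607 and 0.404 in spermatids. Neither gene was called between genotypes in any cell type. Eif1 rose from MI to spermatids (1.17 ± 0.32, adjusted p = 0.0097) and Eif1b was not called (-0.67 ± 0.36, adjusted p = 0.15). The call of Eif1 into spermatids was lost without MI library 2 (1.06) or spermatid library 1 (1.03) and with quantile normalization (0.34) or equal totals (0.33), at adjusted p from 0.064 to 0.46.

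Of the 53 members 2 lie on the X chromosome, Eif1ax and Eif2s3x, and 1 on the Y, Eif2s3y. Eif2s3x (chrX:94188707-94212862, GRCm38) and Eif2s3y (chrY:1010543-1028847) encode the tRNA-binding gamma subunit of eIF2 in 2 forms, and their transcripts share 0 windows of 50 bases. Eif2s3x was at 7.29 and 5.7 FPKM in wild-type spermatogonia, 1.73 and 0.942 in MI, 13.5 and 6.98 in MII and 0.164 and 0.204 in spermatids. Eif2s3y was at 23.7 and 25.9 FPKM in spermatogonia, 10.3 and 6.08 in MI, 14.1 and 10.1 in MII and 33.7 and 48.5 in spermatids. Both fell from spermatogonia to MI (Eif2s3x -1.695 ± 0.34, adjusted p = 0.00088, Eif2s3y -1.52 ± 0.31, adjusted p = 0.0012). They then parted: Eif2s3y rose from MI to spermatids (2.21 ± 0.31, adjusted p = 7.5e-05), and Eif2s3x fell again (-0.96 ± 0.34, adjusted p = 0.033). The call of Eif2s3x into spermatids was lost without MI library 1 (-0.71), spermatid library 1 (-0.93) or spermatid library 2 (-0.98) and with a pseudocount of 5 (-0.29) or quantile normalization (-0.78), at adjusted p from 0.11 to 0.26. The ratio of Eif2s3x to Eif2s3y was 0.307 and 0.2203 in spermatogonia, 0.167 and 0.155 in MI and 0.0049 and 0.0042 in spermatids, and Tex10-deficient spermatids had 0.0038 and 0.0103.

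Eif1ax (chrX:159372178-159389928) and its autosomal relative Eif1a encode eIF1A, which holds the scanning subunit open. Eif1ax was at 69.2 and 73.6 FPKM in spermatogonia, 13.2 and 6.82 in MI, 52.6 and 51.6 in MII and 62.3 and 30.8 in spermatids. Eif1a was at 13.9 and 13.04 FPKM in spermatogonia, 24.3 and 26.6 in MI, 25.5 and 26.1 in MII and 25.1 and 33.2 in spermatids. Eif1ax had the largest fall of any member into MI (-2.78 ± 0.48, adjusted p = 0.00031), and both MI libraries lay below all others of the wild type. Eif1a rose in the same step (0.87 ± 0.27, adjusted p = 0.015). The call of Eif1a into MI was lost without spermatogonia library 1 (0.91), spermatogonia library 2 (0.82) or MI library 2 (0.80) and with quantile normalization (0.57) or equal totals (0.35), at adjusted p from 0.052 to 0.29. The ratio of Eif1ax to Eif1a was 4.96 and 5.65 in spermatogonia and 0.543 and 0.256 in MI. It was 2.48 and 0.927 in wild-type spermatids, where the 2 libraries differ. Eif1ax rose from MI to spermatids (2.09 ± 0.48, adjusted p = 0.003). The first wild-type spermatid library, with the higher Eif1ax, held Leydig markers at 61.6 FPKM, against 12.3 in the second. Their part in that rise was not tested. In Tex10-deficient mice Eif1ax was at 8.76 and 9.03 FPKM in MI and 29 and 102 in spermatids. The second of those spermatid libraries also held Leydig markers at 177 FPKM, against 14.6 in the first, and their part in its higher value was not tested.

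**Figure D3:**
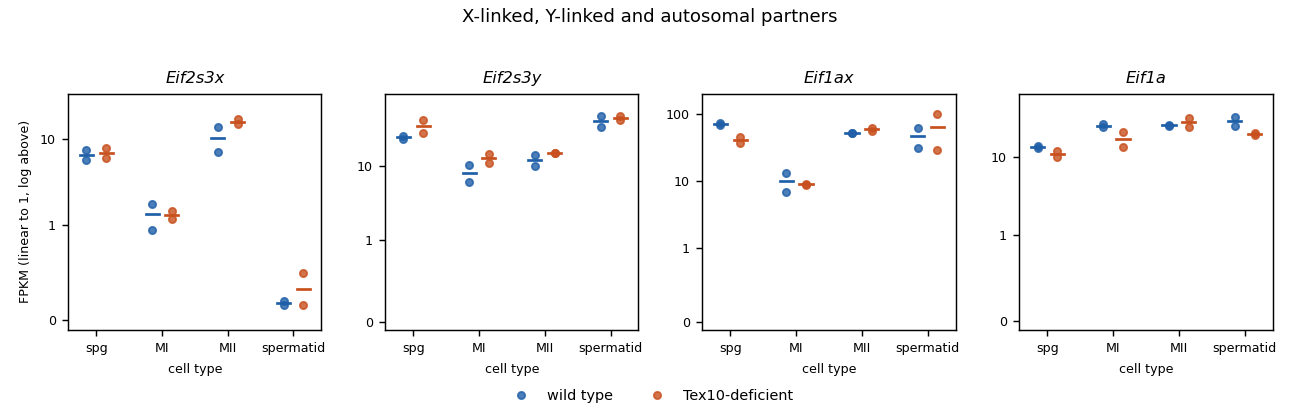
FPKM (y axis, linear up to 1 and logarithmic above) of the X-linked Eif2s3x and Eif1ax, the Y-linked Eif2s3y and the autosomal Eif1a in 4 cell types (x axis, spg for spermatogonia). Points are libraries, 2 per group, bars are group means, blue is wild type and orange is Tex10-deficient. The 3 sex-linked genes dip in MI, and only Eif2s3x of the 3 is under 1 FPKM in all 4 spermatid libraries.

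The other subunits of eIF2 are autosomal and, as deposited, were highest in spermatids among the wild-type groups. Neither Eif2s1 nor Eif2s2 was called from MI to spermatids in either genotype. In Tex10-deficient cells Eif2s1 had its highest mean in MI. Eif2s2 (beta subunit) was at 57.4 and 69.7 FPKM in spermatogonia, 111 and 133 in MI, 45.5 and 55.5 in MII and 170.3 and 172 in spermatids. Eif2s1, the alpha subunit that the stress kinases phosphorylate, was at 19.99 and 21.5 FPKM in spermatogonia, 32.7 and 24.3 in MI, 12.1 and 12.3 in MII and 60.3 and 59.6 in spermatids. Eif2s2 rose into MI (0.93 ± 0.26, adjusted p = 0.0086), and Eif2s1 was not called (0.43 ± 0.44, adjusted p = 0.43). The call of Eif2s2 into MI was lost without spermatogonia library 1 (0.80) or MI library 2 (0.80) and with quantile normalization (-0.02) or equal totals (0.40), at adjusted p from 0.078 to 0.95.

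The 5 subunits of eIF2B, which work as 1 complex, did not keep to 1 pattern. Eif2b3, of the catalytic part, was at 10.53 and 9.25 FPKM in wild-type spermatogonia, 3.42 and 1.91 in MI, 6.28 and 4.23 in MII and 0.253 and 0.0444 in spermatids. Eif2b5, the catalytic subunit itself, was at 12.3 and 10.4 FPKM in spermatogonia, 21.97 and 21.8 in MI, 7.56 and 7.01 in MII and 16.2 and 13.4 in spermatids, and was chosen for description after its values were seen, as were Eif2b2 and Eif2b4. The 2 moved in opposite directions into MI: Eif2b3 fell (-1.601 ± 0.33, adjusted p = 0.0011) and Eif2b5 rose (0.89 ± 0.27, adjusted p = 0.013). The call of Eif2b5 into MI was lost without spermatogonia library 2 (0.78), MI library 1 (0.89) or MI library 2 (0.90) and with equal totals (0.39), at adjusted p from 0.056 to 0.22. Eif2b3 fell again from MI to spermatids (-1.65 ± 0.33, adjusted p = 0.0011). Eif2b1, of the regulatory part, was at 6.29 and 8.51 FPKM in spermatogonia, 14.1 and 10.45 in MI and 2.37 and 2.201 in spermatids, and fell in that step (-2.001 ± 0.39, adjusted p = 0.001). Eif2b4, also regulatory, was at 9.97 and 6.92 FPKM in spermatogonia, 8.29 and 14.9 in MI, 5.23 and 8.71 in MII and 18.04 and 18.8 in spermatids. Eif2b2, likewise regulatory, was at 4.68 and 6.61 FPKM in spermatogonia, 8.35 and 5.298 in MI, 6.25 and 4.52 in MII and 5.85 and 7.76 in spermatids. Neither was called in these steps (0.68 ± 0.37, adjusted p = 0.15 for Eif2b4 and 0.01 ± 0.41, adjusted p = 0.98 for Eif2b2 from MI to spermatids). In spermatids Eif2b3 was thus below 1 FPKM while the other 4 were at 2 FPKM or more. In Tex10-deficient spermatids Eif2b3 was at 1.06 and 0.465 FPKM, and both its steps were called there too (-1.101 ± 0.33, adjusted p = 0.013 into MI and -1.76 ± 0.33, adjusted p = 0.00073 into spermatids).

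**Figure D4:**
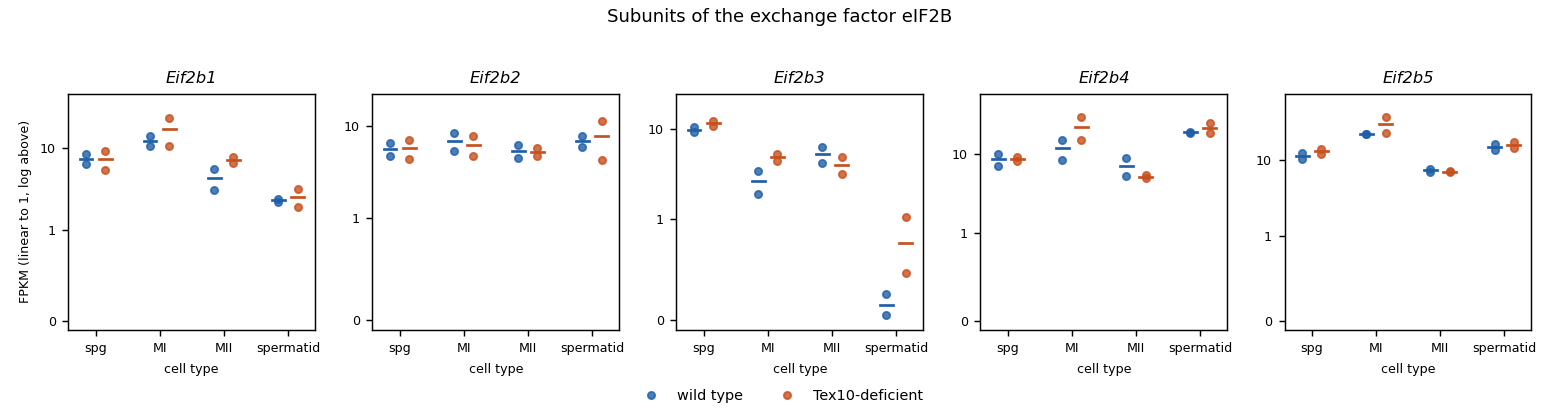
FPKM (y axis, linear up to 1 and logarithmic above) of the 5 eIF2B subunit genes in 4 cell types (x axis, spg for spermatogonia). Points are libraries, 2 per group, bars are group means, blue is wild type and orange is Tex10-deficient. Eif2b3 declines to near 0 in wild-type spermatids and Eif2b1 declines from MI to spermatids, while Eif2b4 and Eif2b5 do not fall below spermatogonial levels in spermatids.

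The 4 kinases of eIF2 differed from each other. Eif2ak1, the heme-regulated kinase, was at 16 and 18.4 FPKM in spermatogonia, 21.6 and 20.6 in MI, 15.1 and 13.3 in MII and 18.4 and 20.7 in spermatids, and was not called in any of the 4 wild-type comparisons. Eif2ak2, the double-stranded RNA-activated kinase PKR, was at 4.35 and 4.93 FPKM in spermatogonia, 11.99 and 14.4 in MI, 15.6 and 16.9 in MII and 11.1 and 12.9 in spermatids, and rose into MI (1.33 ± 0.32, adjusted p = 0.0031). Eif2ak3, the kinase PERK of the endoplasmic reticulum, was at 5.04 and 7.82 FPKM in spermatogonia, 1.29 and 1.06 in MI, 12.7 and 7.05 in MII and 0.1502 and 0.188 in spermatids. It fell into MI (-1.75 ± 0.36, adjusted p = 0.0012). Eif2ak4, the amino acid sensor GCN2, was low throughout, at 2.93 and 2.68 FPKM in spermatogonia, 1.797 and 0.848 in MI and 0.248 and 0.187 in spermatids. It fell into MI (-0.74 ± 0.29, adjusted p = 0.045) and spermatids (-0.90 ± 0.29, adjusted p = 0.022). These estimates are on log2(FPKM + 1), which understates changes at such low levels. The call of Eif2ak4 into MI was lost without spermatogonia library 1 (-0.69), spermatogonia library 2 (-0.79) or MI library 2 (-0.44) and with a pseudocount of 0.1 (-1.11), a fit that omits MII (-0.74) or a fit of only the groups compared (-0.74), at adjusted p from 0.06 to 0.34. The call of Eif2ak4 into spermatids was lost without MI library 1 (-0.60), spermatid library 1 (-0.94) or spermatid library 2 (-0.87) and with a pseudocount of 5 (-0.27) or quantile normalization (-0.71), at adjusted p from 0.059 to 0.21. In the Tex10-deficient spermatid libraries Eif2ak3 was at 0 and 0.0779 FPKM, the first being the value listed at 0.

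Eif5a and Eif5a2 encode eIF5A, the hypusine-carrying factor that helps the ribosome through difficult stretches. Eif5a was at 59.1 and 73.4 FPKM in spermatogonia, 88.1 and 99.3 in MI, 67.98 and 57.01 in MII and 149.7 and 104 in spermatids. Its relative Eif5a2 was at 17.8 and 24.7 FPKM in spermatogonia, 9.28 and 9.09 in MI, 2.79 and 4.38 in MII and 11.2 and 19.7 in spermatids. Eif5a2 fell into MI (-1.11 ± 0.31, adjusted p = 0.0089), and Eif5a was not called (0.50 ± 0.29, adjusted p = 0.16). The call of Eif5a2 into MI was lost without spermatogonia library 2 (-0.88) or MI library 2 (-1.097), at adjusted p from 0.05 to 0.087. The ratio of Eif5a to Eif5a2 was 3.32 and 2.97 in spermatogonia and 9.49 and 10.9 in MI. Eif6, which keeps the large subunit from joining too early, was at 9.19 and 5.19 FPKM in spermatogonia, 3.79 and 5.49 in MI, 4.03 and 4.65 in MII and 4.47 and 2.03 in spermatids, and was not called into MI (-0.51 ± 0.50, adjusted p = 0.41) or from MI to spermatids (-0.45 ± 0.50, adjusted p = 0.49). Eif2a and Eif2d, which can deliver tRNA without eIF2, were not called in either step, with -0.91 ± 0.42, adjusted p = 0.081 for Eif2a and -0.15 ± 0.32, adjusted p = 0.71 for Eif2d into MI.

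The libraries labelled MII held the members' largest changes. Eif4e3 was at 22.7 and 17.8 FPKM there in the wild type, above all 6 other wild-type libraries, a change of 3.45 ± 0.35, adjusted p = 1.2e-05 from MI and -3.99 ± 0.35, adjusted p = 9.8e-07 to spermatids. Eif2ak3 (2.27 ± 0.36, adjusted p = 0.00016), Eif2s3x (2.23 ± 0.34, adjusted p = 0.00011) and Eif1ax (2.33 ± 0.48, adjusted p = 0.00096) rose from MI to MII as well. Eif4e2 (-1.92 ± 0.32, adjusted p = 0.00022), Eif5 (-1.92 ± 0.33, adjusted p = 0.00025) and Eif1b (-1.78 ± 0.36, adjusted p = 0.00095) fell. From MII to spermatids the largest rises were Eif5 (2.46 ± 0.33, adjusted p = 1.6e-05), Eif4e (2.41 ± 0.32, adjusted p = 1.5e-05) and Eif4e2 (2.399 ± 0.32, adjusted p = 1.6e-05), and the largest falls, after Eif4e3, Eif2s3x (-3.18 ± 0.34, adjusted p = 2.9e-06) and Eif2ak3 (-3.17 ± 0.36, adjusted p = 5.3e-06). Markers of other cells moved with these values. From MI to MII every marker of Leydig cells (5), immune cells (6), Sertoli cells (3) and the myoid and endothelial list (3) rose, and all 8 meiotic markers fell. In wild-type MII, Sertoli markers summed to 113 to 134 FPKM and immune markers to 252 to 469, and 0 of these markers were at 0 in both libraries. Their part in the MII values of Eif4e3, Eif2ak3, Eif2s3x and Eif1ax was not tested.

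Genes that act beside the initiation factors were read from lists by function. In the poly(A)-binding list 3 of 8 rose and 3 fell from wild-type spermatogonia to MI, where 26.3% of all genes rose and 25.7% fell. Pabpc6 was at 6.06 and 13.7 FPKM in spermatogonia and 959 and 1347 in MI (6.803 ± 0.61, adjusted p = 2.0e-06), and Pabpc2 at 5.16 and 13.4 FPKM in spermatogonia and 926 and 984 in MI (6.66 ± 0.59, adjusted p = 1.9e-06). Both are germ cell copies of Pabpc1, the poly(A)-binding protein that eIF4G contacts, and share 0 windows of 50 bases with it. Pabpc4 fell, from 16.9 and 15.5 FPKM to 4.26 and 1.45 (-2.26 ± 0.38, adjusted p = 0.00025), as did Paip2b, an inhibitor of poly(A)-binding protein (-1.47 ± 0.29, adjusted p = 0.00095). The mTOR list had 2 of 12 higher and 6 lower in the same step. Larp1, which binds messenger RNAs that encode the translation machinery, rose from 43.3 and 45.4 FPKM to 188 and 271 (2.32 ± 0.32, adjusted p = 4.8e-05), and the kinase gene Mtor rose (1.27 ± 0.28, adjusted p = 0.002). Rictor (-1.58 ± 0.28, adjusted p = 0.00041) and Tsc2 (-1.204 ± 0.28, adjusted p = 0.0025) fell. From MI to spermatids, where 22.6% of all genes rose and 19.8% fell, 0 of the 12 rose and 4 fell, led by Rps6kb1, the S6 kinase (-1.58 ± 0.39, adjusted p = 0.0048), and Rictor (-1.45 ± 0.28, adjusted p = 0.00092). In the poly(A)-binding list 3 of 8 rose and 2 fell in that step, with Paip2 higher (1.38 ± 0.26, adjusted p = 0.00084) and Paip1 lower (-1.81 ± 0.31, adjusted p = 0.0004). The call of Paip2 into spermatids was lost with quantile normalization (0.51) or equal totals (0.55), at adjusted p from 0.12 to 0.15.

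Of 8 genes of the integrated stress response, the program downstream of the eIF2 kinases, 1 rose and 4 fell into MI. Over all genes 26.3% rose and 25.7% fell in that step. Ddit3 was at 0 and 0.6802 FPKM in spermatogonia and 16.2 and 19.9 in MI (3.87 ± 0.62, adjusted p = 0.00018), with the first spermatogonial library listed at 0. Atf3 was at 28.3 and 26.8 FPKM in spermatogonia and 11.2 and 1.92 in MI (-2.26 ± 0.67, adjusted p = 0.011), and Ppp1r15a, a regulator of the eIF2 phosphatase, at 36.01 and 21.9 FPKM in spermatogonia and 10.96 and 3.73 in MI (-1.95 ± 0.65, adjusted p = 0.021). The call of Atf3 into MI was lost without spermatogonia library 1 (-2.22) or MI library 2 (-1.23), at adjusted p from 0.052 to 0.18. The call of Ppp1r15a into MI was lost without spermatogonia library 1 (-1.604) or MI library 2 (-1.28) and with a pseudocount of 0.1 (-2.11), at adjusted p from 0.075 to 0.21. Into spermatids 2 of 8 rose, Asns (3.505 ± 0.53, adjusted p = 0.00012) and Chac1 (2.74 ± 0.45, adjusted p = 0.00024), and 3 fell, among them Atf4 (-2.09 ± 0.41, adjusted p = 0.00097). Over all genes 22.6% rose and 19.8% fell from MI to spermatids.

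The counts of the next lists stand beside 26.3% of all genes higher and 25.7% lower into MI. From MI to spermatids the shares were 22.6% and 19.8%. Of 9 initiation helicase and reinitiation genes 1 rose into MI and 2 fell: Mcts2 rose (1.12 ± 0.28, adjusted p = 0.0046), and the Y-linked Ddx3y (-2.29 ± 0.45, adjusted p = 0.00082) and the X-linked Mcts1 (-1.17 ± 0.38, adjusted p = 0.019) fell. The call of Mcts2 into MI was lost with quantile normalization (0.19) or equal totals (0.58), at adjusted p from 0.1 to 0.6. The call of Mcts1 into MI was lost without spermatogonia library 1 (-1.21), spermatogonia library 2 (-1.14), MI library 1 (-1.18) or MI library 2 (-1.18) and with a pseudocount of 5 (-0.32), at adjusted p from 0.06 to 0.083. Among 6 termination and recycling genes 1 rose and 3 fell into MI, with Abce1, the recycling factor, lower (-1.49 ± 0.26, adjusted p = 0.00032) and Gspt2 lower (-1.65 ± 0.39, adjusted p = 0.0031), and 3 rose and 0 fell from MI to spermatids, led by the release factor gene Etf1 (2.56 ± 0.28, adjusted p = 1.1e-05), with Hbs1l next (1.196 ± 0.27, adjusted p = 0.0031). The call of Hbs1l into spermatids was lost with quantile normalization (0.36) or equal totals (0.36), at adjusted p of 0.3. Of 7 elongation genes 0 rose and 1 fell into MI, Eef2k, the kinase of elongation factor 2 (-1.098 ± 0.31, adjusted p = 0.0082). Into spermatids 2 rose, Eef1d (2.46 ± 0.39, adjusted p = 0.00017) and Eef1g (1.08 ± 0.26, adjusted p = 0.0044). The call of Eef1g into spermatids was lost without spermatid library 1 (0.86) and with quantile normalization (0.17) or equal totals (0.23), at adjusted p from 0.058 to 0.64. Dhps, the first enzyme of hypusine synthesis on eIF5A, fell into MI (-1.47 ± 0.35, adjusted p = 0.0033) and again from MI to spermatids (-1.21 ± 0.35, adjusted p = 0.013). The call of Dhps into spermatids was lost without MI library 2 (-1.11) or spermatid library 2 (-0.94) and with a pseudocount of 5 (-0.38) or quantile normalization (-1.12), at adjusted p from 0.067 to 0.12. Metap2, a methionine aminopeptidase that also binds eIF2, rose into MI (0.86 ± 0.27, adjusted p = 0.017). The call of Metap2 into MI was lost without spermatogonia library 1 (0.71), MI library 1 (0.86) or MI library 2 (0.85) and with quantile normalization (0.50) or equal totals (0.34), at adjusted p from 0.061 to 0.29.

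The same steps between cell types were read in the Tex10-deficient libraries. Their estimates come from other libraries than those of the wild type, but 1 fit of all 16 libraries gave a shared spread. The calls in the 2 genotypes are so not independent. From Tex10-deficient spermatogonia to MI 24 members were called, 13 higher and 11 lower (51.2% of all genes, 26.5% higher and 24.7% lower). With quantile normalization the split was 4 and 20, and with equal totals 3 and 16. The count was 15 without Tex10-deficient spermatogonia library 1 and 15 without Tex10-deficient MI library 1. In both genotypes 6 members were called higher, which is 6 of 8 in the wild type and 6 of 13 in Tex10-deficient cells, and 10 lower, which is 10 of 13 and 10 of 11. Over all genes 2904 were called higher in both, which is 84.4% of those in the wild type and 83.5% of those in Tex10-deficient cells, and 2602 lower, which is 77.4% and 80.5%. The sign was the same for 45 of 53 members, and for 88.1% of all genes. Among the 16 were Eif4g3 (2.11 ± 0.29, adjusted p = 6.8e-05), Eif4e2 (1.56 ± 0.32, adjusted p = 0.0012), Eif4g1 (-1.38 ± 0.29, adjusted p = 0.0015), Eif4a1 (-1.29 ± 0.28, adjusted p = 0.0018) and Eif4ebp2 (-1.16 ± 0.25, adjusted p = 0.0018) in Tex10-deficient cells. The sex-linked Eif1ax (-2.08 ± 0.48, adjusted p = 0.0027), Eif2s3x (-1.77 ± 0.34, adjusted p = 0.00074) and Eif2s3y (-1.39 ± 0.31, adjusted p = 0.0024) were among them too. Eif3b rose (1.31 ± 0.30, adjusted p = 0.0029) and Eif2ak3 fell (-1.89 ± 0.36, adjusted p = 0.00081), also in both. The call of Eif3b in Tex10-deficient cells was lost with quantile normalization (0.70), at adjusted p of 0.085.

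From Tex10-deficient MI to spermatids 18 members were called, 10 higher and 8 lower (42.4% of all genes, 23.6% higher and 18.8% lower). The split was 2 and 14 with quantile normalization and 2 and 23 with equal totals, and the count was 8 without Tex10-deficient spermatid library 2. In both genotypes 7 were called higher, of 9 and 10, and 5 lower, of 8 and 8. Over all genes 2580 were called higher in both (87.3% and 83.5%) and 1996 lower (77.1% and 81.2%). The sign was the same for 47 of 53 members against 88.2% of all genes. Eif2s3y (1.75 ± 0.31, adjusted p = 0.00057) and Eif1ax (2.49 ± 0.48, adjusted p = 0.0009) rose, as did Eif1 (1.43 ± 0.32, adjusted p = 0.0028), and Eif2b1 (-2.28 ± 0.39, adjusted p = 0.00039), Eif2b3 and Eif4h (-2.01 ± 0.44, adjusted p = 0.0023) fell. The call of Eif1 in Tex10-deficient cells was lost with quantile normalization (0.53) or equal totals (0.59), at adjusted p from 0.13 to 0.22. Eif1 was at 65.3 and 110.7 FPKM in Tex10-deficient spermatids. The second library, with the higher value, held Leydig markers at 177 FPKM, against 14.6 in the first. The part of those markers in the rise of Eif1 was not tested. The Tex10-deficient MI libraries differed from each other in several members: Eif2s1 was at 87.7 and 25.5 FPKM, Eif4h at 97.7 and 37.2 and Eif2b1 at 23.2 and 10.7.

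Between genotypes no member was called in any cell type. The count was 0 of 53 in spermatogonia (0.0153% of all genes called), MI (0.168%), MII (0.00763%) and spermatids (0%), 0 in the average over the 4 types (0.0992%) and 0 in the test of whether the difference varied between types (0%), by limma. At an unadjusted p under 0.05 there were 3, 3, 1, 0, 5 and 0 members (6.6%, 5.84%, 13.3%, 2.17%, 11% and 6.49% of all genes). The median log2 difference of the members was -0.02 in spermatogonia, 0.03 in MI, 0.07 in MII and -0.04 in spermatids, and over all genes -0.007, -0.003, -0.017 and -0.018. With 2 libraries a group the 95% interval of a member reached 0.699 on either side of its estimate at the median, on the log2 scale. It lay within a 2-fold change either way for 35, 30, 30 and 38 of the 53 members in the 4 types, and for 53 of 53 in the average.

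The smallest p in a single type was that of Eif2ak2 in MI. Its level was 11.99 and 14.4 FPKM in wild-type and 5.05 and 6.11 in Tex10-deficient MI, with no overlap, and the difference did not pass the correction (-1.11 ± 0.32, adjusted p = 0.35). In that comparison 18.4% of all genes were lower with no overlap. In the other types Eif2ak2 was at 3.35 and 4.59 FPKM in Tex10-deficient spermatogonia, 12.5 and 25.7 in MII and 8.25 and 8.05 in spermatids, against the wild-type values given above. Eif1b had the smallest p of the average (-0.58 ± 0.18, adjusted p = 0.24). It was at 33.99 and 30.2 FPKM in Tex10-deficient spermatogonia, 73.6 and 62.1 in MI, 31.4 and 15.2 in MII and 39.6 and 44.7 in spermatids. Its Tex10-deficient libraries lay below both wild-type ones in spermatogonia, MI and spermatids, and overlapped them in MII. Of all genes, 19.6% in spermatogonia, 18.4% in MI and 15.9% in spermatids were lower with no overlap. Next in the average came Eif2ak2 (-0.42 ± 0.16, adjusted p = 0.35), Eif2s3y (0.39 ± 0.16, adjusted p = 0.38), Eif4h (0.50 ± 0.22, adjusted p = 0.42) and Eif1a (-0.30 ± 0.14, adjusted p = 0.44).

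In spermatogonia the smallest p were those of Eif4ebp2 (-0.65 ± 0.25, adjusted p = 0.63) and Eif4ebp3 (-0.96 ± 0.37, adjusted p = 0.64). Neither passed the correction, and the related Eif4ebp1 was at 0.07 ± 0.43 in the same comparison. Eif4ebp2 was at 39.3 and 38.5 FPKM and Eif4ebp3 at 3.89 and 7.25 FPKM in Tex10-deficient spermatogonia, with no overlap with the wild type. Of all genes 19.6% were lower there with no overlap. Eif1b, Eif2ak4 and Eif1ax followed, all lower, with adjusted p from 0.71 to 0.88. In MI after Eif2ak2 came Eif2b4 (0.82 ± 0.37, adjusted p = 0.83), Eif2b3 (0.71 ± 0.33, adjusted p = 0.85), Eif1a (-0.55 ± 0.27, adjusted p = 0.9) and Eif2s3y (0.61 ± 0.31, adjusted p = 0.91). In MII the 5 were Eif4ebp1 (1.05 ± 0.43, adjusted p = 0.29), at 17.2 and 14.8 FPKM in Tex10-deficient and 6.06 and 8.54 in wild-type MII, then Eif2s3x (0.63 ± 0.34, adjusted p = 0.46), Eif3i (0.79 ± 0.44, adjusted p = 0.49), Eif4e3 (0.61 ± 0.35, adjusted p = 0.51) and Eif3b (-0.52 ± 0.30, adjusted p = 0.52). Meiotic markers summed to 92.0 and 191 FPKM in Tex10-deficient MII and to 256 and 677 in wild-type MII, and their part in these differences was not tested. In spermatids the 5 were Eif2d, Eif1a, Eif2b3, Eif2ak2 and Eif1b, with estimates from -0.56 to 0.62 and adjusted p of 1.

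**Figure D5:**
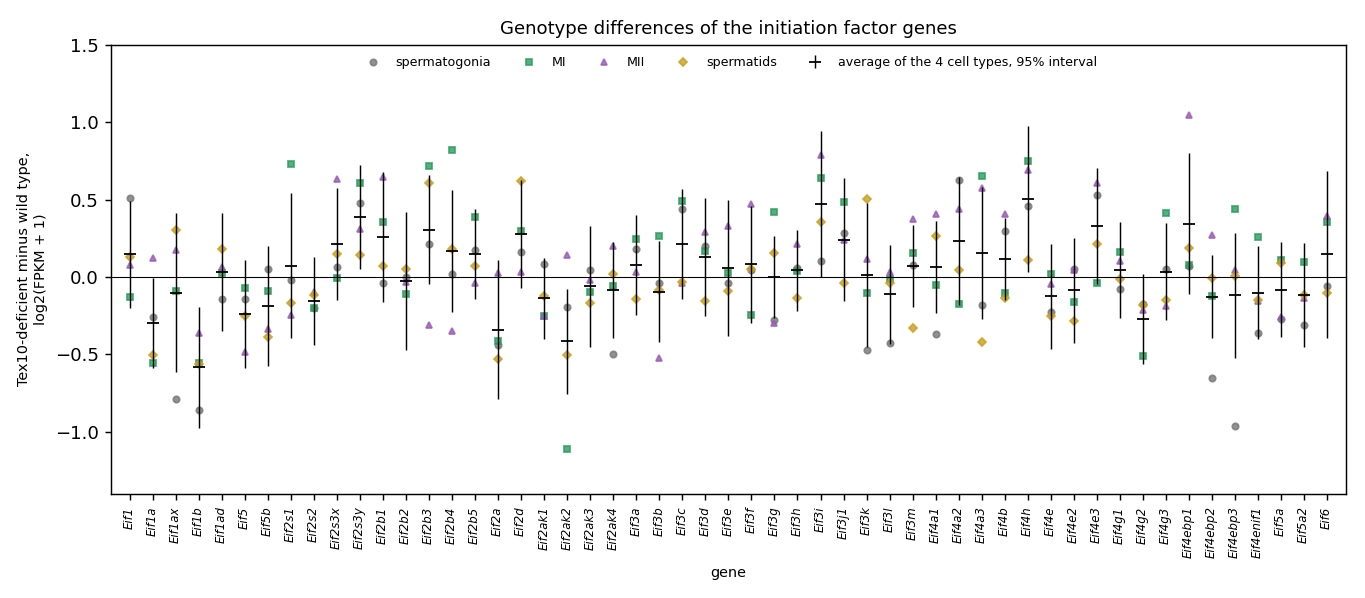
Tex10-deficient minus wild-type difference of log2(FPKM + 1) (y axis) for each of the 53 genes (x axis, ordered by role) in 4 cell types (colored symbols, means of 2 against 2 libraries), with the average over the 4 types (black dash) and its 95% interval (bar). Estimates run from -1.11 for Eif2ak2 in MI to 1.05 for Eif4ebp1 in MII, and none of the 53 genes passed the correction.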

How the data were processed

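RNA of sorted testis cells was measured in 16 libraries, 2 in each of 8 groups by cell type and genotype, taken from the sample titles. The authors deposited 1 table of FPKM with 1 added to each value, as read from the smallest value, which is 1. Here 1 was subtracted, and 1 of the 13101 genes, which has an unreadable cell, was dropped. The submitters' processing notes name the build mm10, Cufflinks 2.2.1, STAR 2.7.6a, cutadapt, Trim Galore 0.6.3 and FastQC 0.10.1. Annotation, gene filter, strand setting and scaling between libraries were not given in the sources used here. Total counts are not in the table, so depth is unknown and no counting interval is given.

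limma 3.58.1 (R 4.3.3) was fitted on log2(FPKM + 1) to all 16 libraries as 8 groups (8 residual degrees of freedom, eBayes with a trend) for the 13099 genes at 1 FPKM or more in at least 2 libraries. This scale understates changes of low genes. P-values were adjusted by Benjamini-Hochberg over all genes and called under 0.05. On simulated data for wild-type spermatogonia to MI with 200 of 13099 genes changed, 68% of log2 changes of 2 and 12% of those of 1 were recovered, and 7 of 87 calls were false. In the data themselves 51.9% of genes were called in that step, so these shares do not carry over to it. Python 3.11.15, pandas 2.3.3, numpy 2.4.6 and matplotlib 3.10.9 were used, with GENCODE M21 for positions and exon overlap and RefSeq promoters.

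Members and lists were chosen with earlier results of these data known. Described in full were related members (such as the eIF4G, eIF4A, eIF4E, eIF2 and eIF1 genes), the 3 called members with the largest rise and fall in each step between cell types, the 5 with the smallest p in each genotype comparison, and up to 2 called genes per direction of each pathway list. The other members named, among them Eif2b2, Eif2b4, Eif2b5, Eif3h, Eif4b and Eif4enif1, were chosen after their values were seen. Alternatives were other scalings, pseudocounts, filters, groups, blocks and each library left out.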

Additional observations from a re-analysis of the deposited data

How the results depend on the processing

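Quantile normalization gave 11 members called from wild-type MI to spermatids, and a fit of only the groups compared gave 11 from Tex10-deficient MI to spermatids. With groups taken from the cell type field, which the markers of the Tex10-deficient libraries do not follow, 0 members were called from Tex10-deficient spermatogonia to MI, 14 between genotypes in MI, 23 in MII and 24 in the test of whether the genotype difference varied. Leaving out 1 library at a time gave 11 to 22 calls from wild-type spermatogonia to MI, 15 to 26 from MI to MII, 30 to 35 from MII to spermatids, 8 to 19 from MI to spermatids, 15 to 24 and 8 to 19 in the 2 Tex10-deficient steps, and 0 to 0 in every genotype comparison. Pseudocounts of 0.1 and 5, filters of 5 FPKM and none, median-of-ratios scaling and robust eBayes kept every count within 1.5 times. Scaling to equal totals and a block within each genotype were chosen after the data were seen.

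Of the members called, signs turned under quantile normalization for Eif2s2 from wild-type spermatogonia to MI (-0.020), for Eif3c (-0.33), Eif3e (-0.0092), Eif3g (-0.28), Eif4g2 (-0.12) and Eif5a (-0.40) from MII to spermatids, for Eif3g from Tex10-deficient spermatogonia to MI (-0.23), and for Eif3h (-0.046) and Eif4g2 (-0.029) from Tex10-deficient MI to spermatids. Under equal totals they turned for Eif2b5 (-0.0081), Eif3g (-0.045), Eif3j1 (-0.026) and Eif5a (-0.023) from MII to spermatids, and for the pathway gene Metap2 from MI to spermatids (-0.033). With groups from the cell type field, the step from Tex10-deficient spermatogonia to MI gave 0.24 for Eif1ax, -0.58 for Eif1b, 0.49 for Eif2ak3, -0.029 for Eif2s1, 0.26 for Eif2s3x, 0.30 for Eif2s3y, -0.20 for Eif3b, 0.12 for Eif4ebp2 and -0.027 for Eif5a. From Tex10-deficient MI to spermatids it gave -0.76 for Eif1ax and -0.75 for Eif4g1. Between genotypes it gave 0.10 for Eif2ak4 in spermatogonia, -0.60 for Eif2b4 in MI, and in MII -2.12 for Eif4ebp1, -2.77 for Eif2s3x, -3.86 for Eif4e3 and 1.81 for Eif3b. The causes were not tested, apart from the regrouping itself.

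Same-numbered libraries of the 2 genotypes deviated together with r of 0.203, 0.004, 0.308 and -0.127 over genes in the 4 cell types. Between the cell types of 1 genotype r was 0.143 to 0.358 in the wild type, over 0.1 in all 6 pairs of types, and -0.0816 to 0.418 in Tex10-deficient libraries. The labels do not say what a number stands for, and with 2 libraries a group the pairing could not be settled. With the replicate number as a block the counts of calls were 24, 27, 38 and 21 in the wild-type steps, 27 and 21 in the Tex10-deficient steps and 0 between genotypes. With a block within each genotype they were 24, 28, 37 and 20, 27 and 23, and 0, so neither block moved a count by over 1.5 times. With 2 libraries a group and unknown depth, changes near 2-fold could be missed. How often was not measured at the share of genes called in the steps between cell types.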
